A study of Rattus norvegicus with 10 samples.

Results

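The genes described here encode matrix metalloproteinases, the related ADAM and ADAMTS proteases, and the tissue inhibitors of metalloproteinases, or TIMPs. They were chosen by symbol alone (Mmp, Timp, Adam or Adamts followed by a digit), which took 70 of the 22250 genes in the deposited table: 22 Mmp, 25 Adam, 19 Adamts and 4 Timp genes. RNA sequencing of rat lung gave 10 libraries, 5 titled MOD and 5 titled XBS. The study's design text describes rats in which neutrophilic asthma was produced with ovalbumin, an allergen from egg white, together with lipopolysaccharide, an endotoxin, and which then received a formula called SP. The sources used here do not give what MOD and XBS stand for, which of them received SP, or the strain, age, dose and number of animals, so XBS is compared with MOD by name. Tissue, cell line and cell type labels are the same in both groups.

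The labels name lung tissue and also 16HBE, a human bronchial epithelial cell line. The libraries held transcripts of several lung cell types: Sftpc, of alveolar type 2 cells, ranged from 10580 to 14370 CPM over the MOD libraries and from 5902 to 13070 CPM over the XBS libraries, and Ptprc, of leukocytes, from 246 to 277 and 281 to 363 CPM, ranges that did not overlap (adjusted p = 0.122 by edgeR). CPM, the usual depth-scaled count, was taken over library sizes adjusted for composition by TMM. Libraries held 11998979 to 15518929 counts, so that 3 counts, taken as the lowest count that can be told from 0, correspond to 0.193 to 0.25 CPM (counting error only). No label says that libraries of one group are separate animals, so p-values here describe the spread between libraries, which may be technical. In bulk tissue, fewer cells of a type and less RNA per cell cannot be told apart.

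Matrix metalloproteinases are zinc-dependent enzymes that are made as inactive precursors and cut collagens, elastin, proteoglycans and many secreted proteins once their propeptide is removed. ADAM proteases sit in the cell membrane and release growth factors, cytokines and receptors from the cell surface, while the secreted ADAMTS enzymes bind the matrix and cut proteoglycans, procollagens or von Willebrand factor. TIMPs bind the active site of these enzymes and block it. In the lung, neutrophils carry MMP8 and MMP9 in their granules, macrophages secrete MMP12, and fibroblasts make MMP2 and TIMPs.

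Of the 70 genes, 42 passed the filter on low counts and were tested, and 28 were not. Of these 28, 9 had 0 counts in every library: Mmp1, Mmp1b, Mmp3, Mmp10, Adam7, Adam21, Adam24, Adam34 and Adam34l. Another 12 had 1 to 13 counts over all 10 libraries together, namely Mmp20, Mmp21, Mmp27, Mmp28, Adam2, Adam3a, Adam5, Adam6a, Adam18, Adam30, Adam32 and Adamts16. The last 7 had more: 81 for the stromelysin gene Mmp11, 80 for Adam22, 78 for Adam4, 38 for the matrilysin gene Mmp7, 34 for the collagenase gene Mmp13, 29 for Adamts18 and 19 for Adamts20. No untested gene exceeded 16 counts in any library. Several of the untested ADAM genes, such as Adam2 and Adam3a, are known from sperm.

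Levels of different genes were compared per gene length, as deposited FPKM (the count scaled to gene length and library total) averaged over the 10 libraries. Inhibitors stood at the top, with Timp2 at 315 FPKM and Timp3 at 312 FPKM. In MOD, Timp2 was at 319 ± 32.1 and Timp3 at 352 ± 9.22 FPKM, and in XBS at 312 ± 48.1 and 272 ± 62.2 FPKM (SD, n = 5), so the order of the means differed between the groups. The gelatinase gene Mmp2 came next at 116 FPKM, followed by its membrane-bound activator Mmp14 at 68.0 FPKM. The genes that came after, Adam9 (59.3 FPKM), Adam17 (55.9), Adamts10 (52.7), Timp1 (50.7), Adam10 (50.2) and Mmp15 (50.2), were close to one another: each step from one to the next was smaller than the larger SD of the pair over the MOD libraries (11.2 FPKM for Timp1, 6.05 FPKM for Adam9). Together 3 genes reached 100 FPKM, 10 reached 50 FPKM, 20 reached 10 FPKM and 37 reached 1 FPKM. The 4 Timp genes made up 47.2% of the summed FPKM of the 70 genes, the Mmp genes 20.3%, the Adam genes 19.5% and the Adamts genes 13.1%. Within the Mmp genes, Mmp2 alone held 39.6%.

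**Figure D1:**
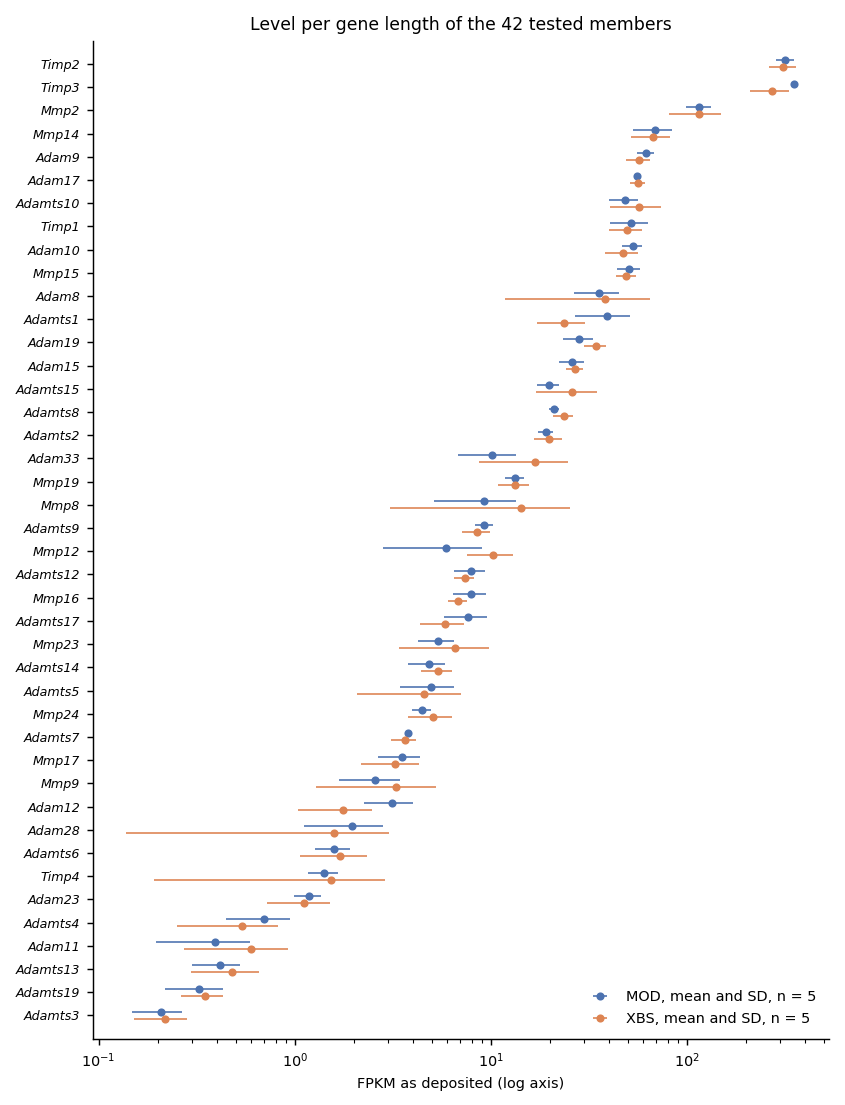
Deposited FPKM (log axis) of the 42 tested genes, ordered by their mean over 10 libraries; points are group means and bars are the SD over 5 libraries, in blue for MOD and orange for XBS. Timp2 and Timp3 lie above 300 FPKM on average and Adamts3 at the bottom at 0.212 FPKM; the widest bars belong to XBS, among them Adam8, Mmp8, Adam28 and Timp4.

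A run of 10 Mmp genes lies within 1 stretch of chromosome 8, between positions 5522739 and 5901049 as the deposited table gives them (build not stated). Their order is Mmp13, Mmp12, Mmp1b, Mmp3, Mmp1, Mmp10, Mmp8, Mmp27, Mmp20 and Mmp7. Reads were plentiful for only 2 of them, Mmp8 with 4011 counts over all libraries and Mmp12 with 2061. The other 8 held 0 to 38 counts each and were not tested, whereas 9 of the 12 Mmp genes outside the run were tested. The run holds the classical inducible collagenase and stromelysin genes, whose promoters are known for a binding site of AP-1 (the Fos and Jun factors) close to a TATA box. RefSeq promoter windows (build GRCr8) were matched for 46 of the 70 genes, including all 10 of the run. The 250 bases before the RefSeq start were searched on both strands for the AP-1 motif TGACTCA and for the TATA motif, spelled TATAAA. AP-1 letters were found in 6 of the 10 windows of the run, at positions -87 to -61 from the start, against 4.05% of all 33469 RefSeq windows. Positions count back from -1, the base before the start, to the first letter of the motif. TATA letters were in 8 of the 10, against 12.9% of all windows. A match is a description of the letters and not of a bound factor. The 110 bases before the start are shown for the 6 genes with AP-1 letters and for Mmp8, because they set the 2 genes with reads beside neighbours with few or 0 counts; capitals mark the AP-1 and TATA letters, all are written 5′ to 3′ on the gene's strand, and coordinates are GRCr8.
Mmp13 (chr8:12782719-12782828, + strand): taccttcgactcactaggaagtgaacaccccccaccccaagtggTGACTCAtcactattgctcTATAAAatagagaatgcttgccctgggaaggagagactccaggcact
Mmp12 (chr8:12866542-12866651, + strand): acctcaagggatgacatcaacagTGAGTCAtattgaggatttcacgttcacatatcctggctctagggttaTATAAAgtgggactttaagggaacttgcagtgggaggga
Mmp3 (chr8:12925171-12925280, + strand): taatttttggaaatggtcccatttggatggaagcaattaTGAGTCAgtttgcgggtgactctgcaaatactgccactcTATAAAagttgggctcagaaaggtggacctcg
Mmp1 (chr8:12943343-12943452, + strand): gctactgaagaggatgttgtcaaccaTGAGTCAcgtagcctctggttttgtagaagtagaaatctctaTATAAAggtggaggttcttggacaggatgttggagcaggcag
Mmp10 (chr8:12974597-12974706, + strand): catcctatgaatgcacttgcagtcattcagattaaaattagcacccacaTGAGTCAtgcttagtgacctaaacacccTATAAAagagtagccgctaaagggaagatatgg
Mmp8 (chr8:13008780-13008889, + strand): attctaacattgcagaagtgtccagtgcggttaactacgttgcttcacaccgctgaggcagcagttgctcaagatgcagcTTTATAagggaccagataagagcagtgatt
Mmp7 (chr8:13132933-13133042, + strand): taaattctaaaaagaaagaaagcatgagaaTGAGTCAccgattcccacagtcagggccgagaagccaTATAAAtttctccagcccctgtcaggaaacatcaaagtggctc
Mmp12 shares both motifs with Mmp3, Mmp1 and Mmp10, which had 0 counts in every library, and Mmp8 has no AP-1 letters in its window. Of the 4 Timp windows 0 had either motif, and 3 had a GC box (GGGCGG on either strand), which 30.5% of all windows have and 0 of the 10 windows of the run.

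Between XBS and MOD, 0 of the 42 tested genes passed an adjusted p of 0.05 by edgeR, where 0.0768% of all 14320 tested genes did (0.0279% higher and 0.0489% lower in XBS). The smallest adjusted p was 0.209, for Adamts1. Unadjusted p under 0.05 was reached by 5 of the 42, 11.9%, against 13.2% of all tested genes (7.4% higher and 5.78% lower in XBS). These were Adamts1, Timp3 and Adam12, at lower levels in XBS, and Mmp12 and Adam33, at higher levels. By DESeq2, Adamts1 alone of the 42 passed (adjusted p = 0.0321; 2.43% of all tested genes passed by DESeq2), and by limma voom 0 of the 42 passed. The groups overlapped for each of the 42, while 2.74% of all tested genes had groups that did not overlap (1.61% with XBS above and 1.13% with XBS below). The median log2 fold change of the 42 was -0.01, beside 0.01 over all tested genes, with 20 of the 42 above 0 (51.9% of all tested genes). For 19 of the 42 the 95% interval lay within a 1.5-fold difference in either direction, so for these genes larger differences fall outside the interval. Fold differences of 1.5 or more were estimated for 5 of the 42: Adam12, Adamts1, Mmp12, Adam33 and Mmp8.

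**Figure D2:**
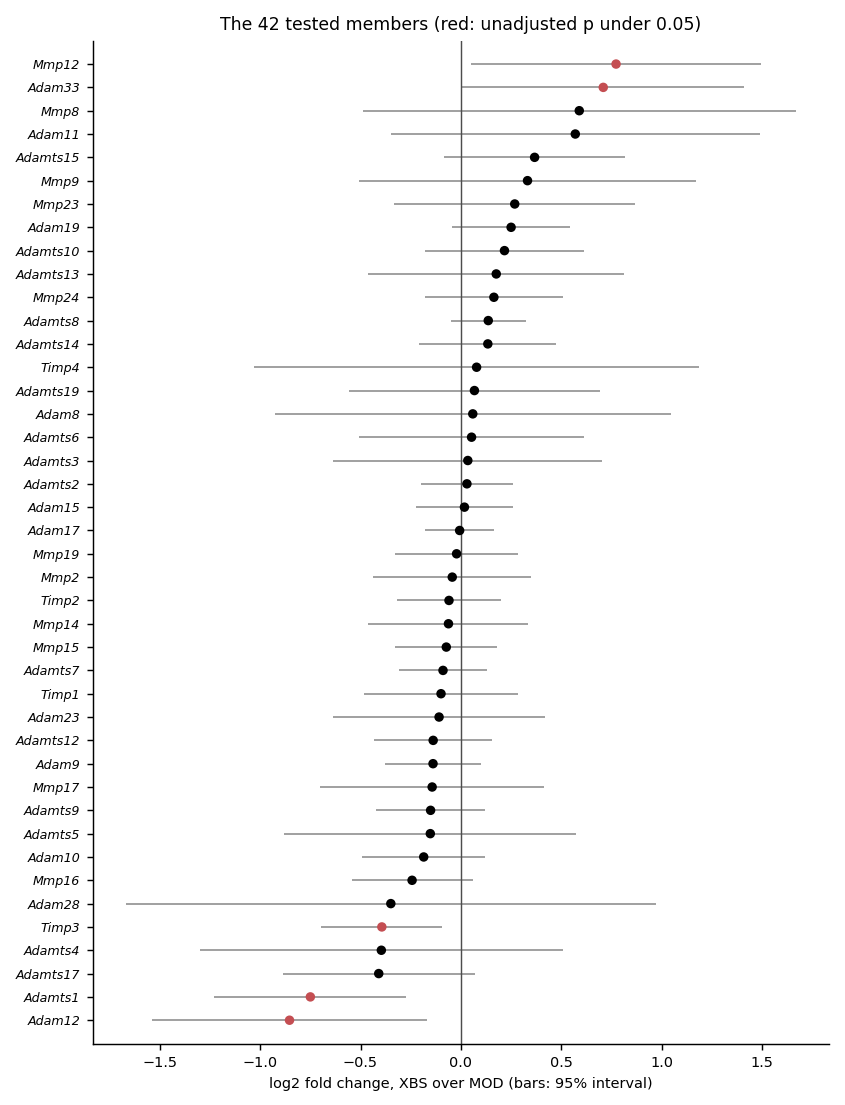
Log2 fold change of XBS over MOD for the 42 tested genes (points) with the 95% interval from the edgeR fit (bars); red points had an unadjusted p under 0.05. Estimates run from -0.85 for Adam12 to 0.77 for Mmp12, and Adam28, Mmp8, Timp4 and Adam8 have among the widest intervals.

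Among the inhibitors, Timp3, which is held in the extracellular matrix and also blocks ADAM17 and the aggrecanases, was estimated lower in XBS, short of the threshold. It stood at 615, 640.5, 594, 635 and 617 CPM in MOD 1 to MOD 5 and at 391, 339.6, 529.6, 495 and 605 CPM in XBS 1 to XBS 5. The 5 MOD values lay close together, 4 XBS values lay below all of them, and XBS 5 lay inside the MOD range. The means were 620.3 ± 18.5 and 472 ± 107 CPM (SD, n = 5), 1.31-fold lower in XBS with a log2 fold change of -0.39 ± 0.14 (SE), an unadjusted p of 0.015 and an adjusted p of 0.282 by edgeR. The spread was wider in XBS than in MOD. Timp2, which both inhibits MMP2 and helps MMP14 to activate it, was at 438, 527, 564, 570.4 and 577 CPM in MOD and at 484, 392, 556, 542 and 593 CPM in XBS. XBS 2 was the lowest library for both Timp2 and Timp3. The Timp2 log2 fold change was -0.06 ± 0.12 (SE), with a 95% interval of -0.32 to 0.20.

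Timp1, an inhibitor known to be induced in inflammation, was at 26.9, 39.6, 33.7, 46.7 and 47.7 CPM in the MOD libraries and 27.9, 29.9, 40.4, 39.9 and 43.4 CPM in the XBS libraries. The lowest values were in MOD 1, XBS 1 and XBS 2, and the groups covered nearly the same range (log2 fold change -0.10 ± 0.18, 95% interval -0.48 to 0.29). Timp4, an inhibitor with high expression in the heart, was the least abundant at 1.94, 2.38, 2.05, 2.92 and 2.83 CPM in MOD and 2.30, 0.74, 0.808, 2.78 and 6.17 CPM in XBS. XBS 5 was highest and XBS 2 and XBS 3 lowest, and without XBS 5 the log2 fold change went from 0.08 to -0.55. Summed heart muscle markers (7 genes, 4 tested) were also highest in XBS 5, at 462 CPM, with 353 CPM in MOD 4 and 37.4 to 108 CPM in the other 8 libraries; Nppa of atrial muscle had 10 counts, all in XBS 5. The 4 tested markers were each highest in XBS 5, and the untested Myh6 in MOD 4, at 94.5 against 64.4 CPM in XBS 5. Their part in the Timp4 values was not tested. Per length, the summed Timp genes were 2.18 to 2.66 times the summed Mmp genes in MOD and 1.84 to 2.39 times in XBS. The means of this ratio were 2.52 ± 0.198 and 2.14 ± 0.208 (SD, n = 5). MOD 1 to MOD 4 lay above every XBS library, and MOD 5, at 2.18, lay inside the XBS range. The Timp sum averaged 724 FPKM in MOD and 635 FPKM in XBS, Timp3 alone 352 and 272 FPKM, and the Mmp sum 289 and 295 FPKM. This ratio therefore includes the Timp3 values given above and is not separate from them. The difference in this ratio was not tested.

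The gelatinases MMP2 and MMP9 cut denatured collagen and basement membrane collagen. Mmp2, the constitutive gelatinase of fibroblasts, was at 269, 403, 346, 378 and 407 CPM in MOD and 314, 258, 297, 369.9 and 512 CPM in XBS, with the lowest value in XBS 2 and the highest in XBS 5. Its log2 fold change was -0.04 ± 0.18 (SE; 95% interval -0.44 to 0.35, adjusted p = 0.934). Summed fibroblast markers (10 of 10 tested) were highest in the same library, at 9900 CPM in XBS 5, and ran from 3407 to 6183 CPM in the other 9. Most of that sum came from the collagen genes Col1a1 and Col3a1, at 7355 CPM in XBS 5; without them, a sum chosen after seeing the data, XBS 5 was at 2544 CPM and the other 9 libraries at 943 to 1686 CPM. Of the 10 markers, 6 were highest in XBS 5, whereas Tcf21, a transcription factor of lung fibroblasts, was lowest there at 135 CPM. The lowest 2 libraries by either sum were MOD 1 and XBS 2, also the lowest 2 by Mmp2. Between the groups 6 markers had log2 fold changes above 0 and 4 below, and 0 passed by edgeR. By edgeR 1 of the 10, Pdgfra, had an unadjusted p under 0.05 (0.0321, lower in XBS), beside 5.78% of all tested genes. The part of fibroblast content in the Mmp2 values was not tested. Mmp9, the inducible gelatinase of leukocytes, was at 8.60, 6.06, 8.49, 12.4 and 5.24 CPM in MOD and 8.38, 20.7, 8.35, 9.99 and 3.94 CPM in XBS. XBS 2 was highest and XBS 5 lowest, and the log2 fold change of 0.33 ± 0.38 (SE) turned to -0.09 without XBS 2.

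Mmp8, the collagenase of neutrophil granules, was the sole collagenase gene with enough reads to be tested. Its level was 26.8, 14.1, 26.4, 35.7 and 11.2 CPM in MOD and 29.1, 80.5, 20.6, 30.4 and 11.4 CPM in XBS. XBS 2 alone lay far above the rest, and the other 4 XBS libraries lay within the MOD range. The log2 fold change was 0.59 ± 0.49 (SE; 95% interval -0.49 to 1.67, adjusted p = 0.609), and 0.001 without XBS 2. Neutrophil markers, summed over 11 genes (10 tested), were at 336 to 531 CPM in the MOD libraries, at 865 CPM in XBS 2 and at 424 to 610 CPM in the other XBS libraries. The high sum of XBS 2 came from S100a8 and S100a9, calcium-binding proteins of the neutrophil cytoplasm, which made up 526 of its 865 CPM. Without these 2 genes, also chosen after seeing the data, XBS 2 was at 339.6 CPM, below XBS 3 (411 CPM), MOD 5 (349 CPM) and XBS 4 (346 CPM). Of the 10 tested markers, 3 (S100a8, S100a9 and Ncf1) were highest in XBS 2 and 5, Csf3r and Cxcr2 among them, in XBS 3. Each of the 10 tested markers had a log2 fold change above 0 and 0 of them passed by edgeR. By edgeR 1 of the 10 had an unadjusted p under 0.05 and was higher in XBS, beside 7.4% of all tested genes. Mmp8 in XBS 3 lay below MOD 1, MOD 3 and MOD 4. The part of neutrophil content in the Mmp8 and Mmp9 values was not tested.

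**Figure D3:**
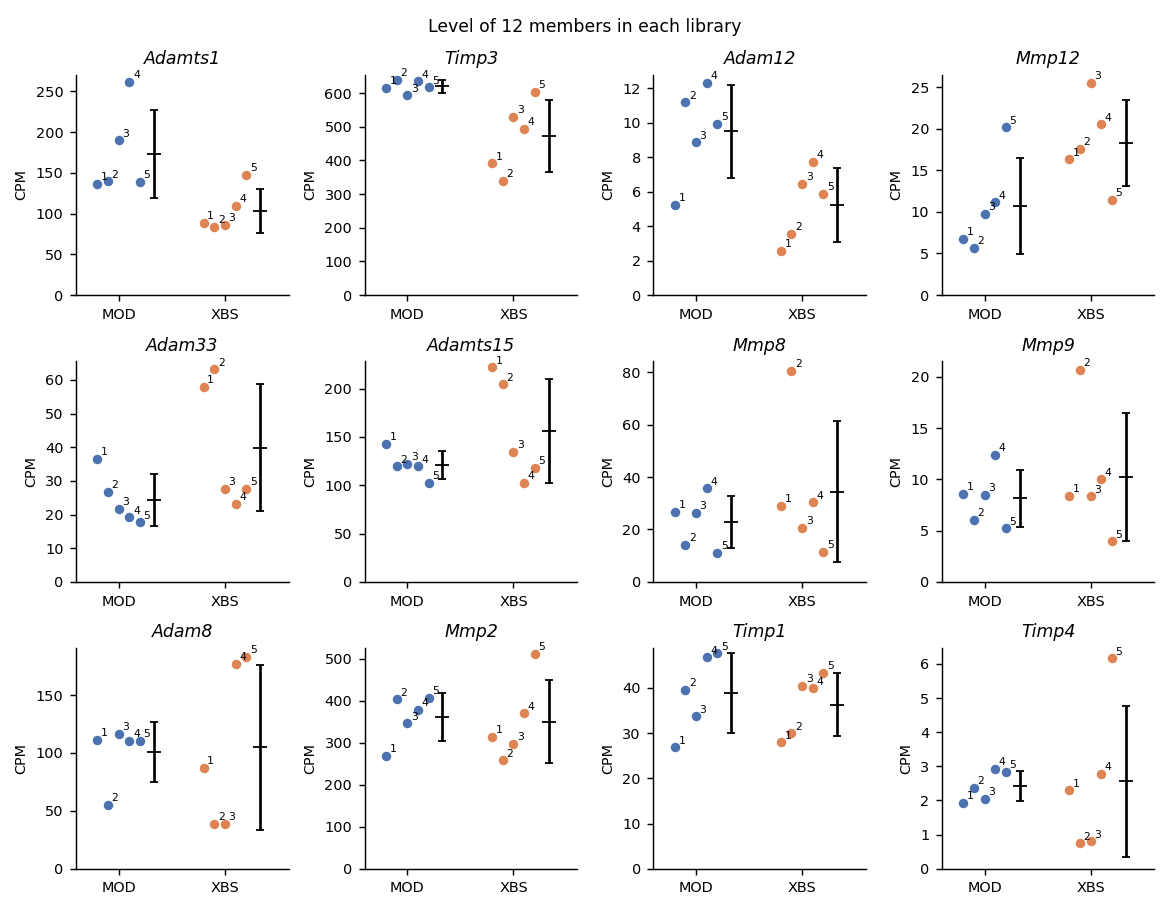
CPM of 12 genes in each library; points carry the replicate number, blue for MOD and orange for XBS, and the black mark and bars are the group mean and SD (n = 5). The groups overlap in each panel, and XBS 2 stands far above the other libraries for Mmp8 and Mmp9 while XBS 5 stands above them for Timp4 and Mmp2.

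Mmp12, macrophage elastase, had the highest fold change of the Mmp genes. It was at 6.74, 5.70, 9.80, 11.2 and 20.2 CPM in MOD 1 to MOD 5 and at 16.4, 17.6, 25.5, 20.6 and 11.5 CPM in XBS 1 to XBS 5. MOD 5 lay inside the XBS range, and XBS 5 was close to MOD 4. The means were 10.7 ± 5.74 and 18.3 ± 5.20 CPM (SD, n = 5), 1.71-fold higher in XBS, with a log2 fold change of 0.77 ± 0.33 (SE) and an adjusted p of 0.356. Without MOD 5 the log2 fold change was 1.13 and the adjusted p 0.118. Alveolar macrophage markers, summed over 9 genes (8 tested), were highest in XBS 3, as was Mmp12, at 725 CPM against 459 to 557 CPM in the other 9 libraries, and 6 of the 8 were highest there. All 8 tested markers had log2 fold changes above 0 and 0 passed by edgeR (2 had an unadjusted p under 0.05); Marco, a receptor of these cells, had 4 counts in all. Monocyte and interstitial macrophage markers (9 genes, 9 tested) stood at 414 to 572 CPM for MOD and 554 to 743 CPM for XBS. Of these 9, 7 were above 0, 0 passed by edgeR and 4 had an unadjusted p under 0.05. The markers of both lists with such a p were higher in XBS. Over all tested genes 7.4% had an unadjusted p under 0.05 by edgeR and were higher in XBS. The part of macrophage content in the Mmp12 values was not tested.

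Of the 5 membrane-bound metalloproteinases in the table, all tested, 1 had a log2 fold change above 0 and 4 below. Mmp14, which cuts collagen at the cell surface, was at 150.1, 160.0, 145, 153 and 241 CPM in MOD and 137, 111, 185, 186 and 193 CPM in XBS. MOD 5 stood high in an otherwise narrow MOD group, and XBS 2 was lowest (log2 fold change -0.06 ± 0.18, 95% interval -0.46 to 0.34). Mmp15, a related membrane enzyme of epithelium, had a log2 fold change of -0.07 ± 0.12, Mmp17 of -0.14 ± 0.25 and Mmp24 of 0.16 ± 0.16. Mmp16 was at 22.1, 33.6, 31.7, 30.8 and 22.4 CPM in MOD and 20.3, 22.6, 24.6, 24.0 and 27.3 CPM in XBS, which overlapped (log2 fold change -0.24 ± 0.14, adjusted p = 0.454). Mmp19, a secreted enzyme, was at 24.3, 28.3, 24.2, 25.7 and 31.9 CPM in MOD and 23.8, 21.7, 35.4, 28.0 and 23.6 CPM in XBS, so that XBS held both the highest and the lowest library (log2 fold change -0.02 ± 0.14, 95% interval -0.33 to 0.28). Mmp23, a short metalloproteinase without the usual domains, spanned 7.67 to 13.3 CPM in MOD and 7.70 to 22.2 CPM in XBS.

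The ADAM sheddases, which cut proteins off the cell surface, had 9 members in the table, all tested, with 4 log2 fold changes above 0 and 5 below. Adam17, which releases TNF and ligands of the EGF receptor, was one of the steadiest genes at 225, 241, 223, 225 and 234 CPM in MOD and 206, 227, 271, 214 and 225 CPM in XBS. Its log2 fold change was -0.01 with a 95% interval of -0.18 to 0.16. Adam10, which cuts Notch receptors and cadherins, was at 166, 217, 186, 221 and 224 CPM in MOD and 148, 135, 218, 199 and 192 CPM in XBS. XBS 1 and XBS 2 lay below every MOD library and the other 3 XBS libraries among them (log2 fold change -0.19 ± 0.14, adjusted p = 0.57). Adam9 and Adam15, other widely expressed sheddases, had log2 fold changes of -0.14 ± 0.11 and 0.02 ± 0.11.

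Adam12, a sheddase of mesenchymal cells, was estimated 1.81-fold lower in XBS, short of the threshold. Its levels were 5.23, 11.2, 8.85, 12.3 and 9.91 CPM in MOD and 2.55, 3.55, 6.46, 7.72 and 5.88 CPM in XBS. MOD 1 was the exception in MOD, at a level inside the XBS range, and the other 4 MOD libraries lay above every XBS library. The log2 fold change was -0.85 ± 0.31 (SE; unadjusted p = 0.0187, adjusted p = 0.297). Adam33, a gene of airway fibroblasts and smooth muscle known from genetic studies of asthma, was estimated 1.63-fold higher in XBS, also short of the threshold, at 36.6, 26.8, 21.7, 19.2 and 17.7 CPM in MOD and 57.9, 63.1, 27.6, 23.2 and 27.7 CPM in XBS. XBS 1 and XBS 2 lay above every MOD library, and XBS 3, XBS 4 and XBS 5 lay within the MOD range (log2 fold change 0.71 ± 0.32, adjusted p = 0.376). The top of that range was MOD 1. XBS 3 and XBS 5 lay above MOD 2 to MOD 5, and XBS 4 above MOD 3 to MOD 5. Without XBS 2 the log2 fold change of Adam33 was 0.48, and without MOD 1 it was 0.90. Summed smooth muscle and pericyte markers (8 genes, 8 tested) were 2262 and 1701 CPM in XBS 1 and XBS 2 and highest in XBS 5, at 4021 CPM. Summed fibroblast markers were 4596 and 4205 CPM in XBS 1 and XBS 2 and also highest in XBS 5, at 9900 CPM. The part of smooth muscle or fibroblast content in the Adam33 values was not tested. Adam19, a related sheddase, was at 197, 173, 162, 144 and 225 CPM in MOD and 230.4, 226, 240.4, 209 and 164 CPM in XBS, with XBS 5 below 3 MOD libraries (log2 fold change 0.25 ± 0.13, adjusted p = 0.44).

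Adam8 and Adam28 varied widely between XBS libraries. Adam8, a sheddase of leukocytes and of activated epithelium, was at 112, 55.2, 116, 111 and 110.5 CPM in MOD and 87.1, 38.9, 38.9, 177 and 183 CPM in XBS. XBS 2 and XBS 3 were lowest of all 10 libraries and XBS 4 and XBS 5 highest, so the group means of 101 ± 25.6 and 105 ± 71.3 CPM (SD, n = 5) were close and the interval of the log2 fold change was wide (-0.93 to 1.04). Adam28, of lymphocytes and epithelium, was at 4.01, 2.81, 3.00, 5.65 and 7.72 CPM in MOD and 2.22, 0.888, 0.875, 6.07 and 8.10 CPM in XBS, again with XBS 2 and XBS 3 lowest and XBS 5 highest. Club and ciliated cell markers, summed over 8 genes (7 tested), stood at 2336 and 2589 CPM in these same 2 libraries and at 7752 to 12170 CPM in the other 8. Without Scgb1a1, the club cell secretory protein that makes up most of this sum, they stood at 402 and 431 CPM in XBS 2 and XBS 3 and at 869 to 1375 CPM in the others. Summed neutrophil markers were highest in XBS 2 and XBS 3, at 865 and 610 CPM, against 336 to 531 CPM in the other 8 libraries. Summed lymphocyte markers were 229 and 246 CPM in XBS 2 and XBS 3 and 156 to 279 CPM in the others. The part of airway or leukocyte content in the Adam8 and Adam28 values was not tested. When XBS 2 and XBS 3 were left out, the log2 fold change of Adam8 went from 0.06 to 0.56 (adjusted p = 0.481). Adam11 and Adam23, which lack peptidase activity, reached 5.81 and 4.95 CPM at most, both in XBS 5.

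**Figure D4:**
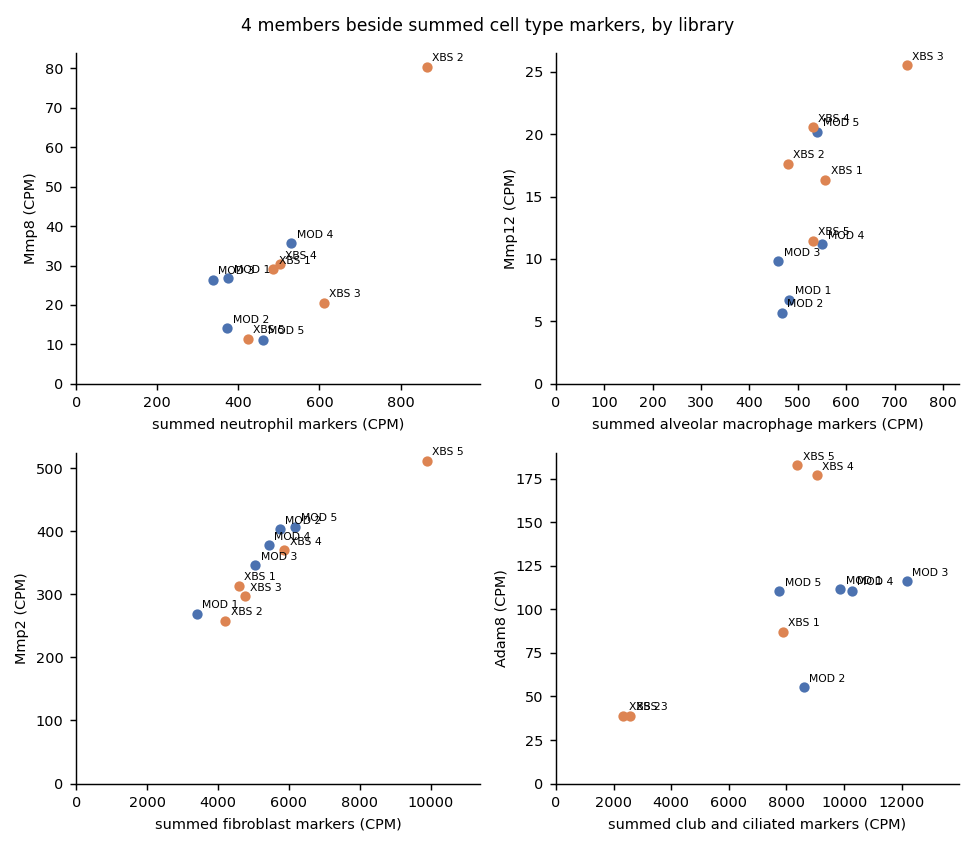
Level of Mmp8, Mmp12, Mmp2 and Adam8 (CPM, vertical axes) against the summed CPM of neutrophil, alveolar macrophage, fibroblast, and club and ciliated markers (horizontal axes) in each of the 10 libraries, blue for MOD and orange for XBS. XBS 2 is highest on both axes for Mmp8, XBS 3 for Mmp12 and XBS 5 for Mmp2 (the neutrophil sum of XBS 2 rests on S100a8 and S100a9, and Col1a1 and Col3a1 make up most of the fibroblast sum), and XBS 2 and XBS 3 are lowest on both axes for Adam8.

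Of the 7 ADAMTS genes for enzymes that cut aggrecan or versican, the large proteoglycans of the matrix, 6 were tested and 4 of these had log2 fold changes below 0. Adamts1, a versican-cutting enzyme of vessels and fibroblasts, was the gene of smallest p of the 42. It was at 137, 139.7, 189.9, 261 and 139 CPM in MOD 1 to MOD 5 and 88.9, 83.9, 85.9, 109 and 147 CPM in XBS 1 to XBS 5. XBS 1 to XBS 4 lay below every MOD library, XBS 5 lay above 3 of them, and MOD 4 was the highest. The means were 173 ± 54.0 and 103 ± 26.8 CPM (SD, n = 5), 1.68-fold lower in XBS, with a log2 fold change of -0.75 ± 0.22 (SE), an unadjusted p of 0.00538 and an adjusted p of 0.209 by edgeR. Over single libraries left out, its log2 fold change ran from -0.91 to -0.55 and its adjusted p from 0.119 to 0.433. Endothelial markers, summed over 8 genes (7 tested), stood at 3450 to 4938 CPM for MOD and 2453 to 3771 CPM for XBS. This sum was lowest in XBS 1. XBS 2 had the highest sum of the XBS libraries and the lowest Adamts1 and Timp3 of all libraries. MOD 2 had the highest sum and the highest Timp3, and MOD 5 the lowest MOD sum, with Timp3 at 617 CPM. Of the 7 markers, 6 had log2 fold changes below 0 and 0 passed by edgeR. By edgeR 4 of the 7 had an unadjusted p under 0.05 and were lower in XBS, beside 5.78% of all tested genes. Cldn5, which marks endothelial junctions, was at 0 in all libraries, and the part of endothelial content in the Adamts1 and Timp3 values was not tested.

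Adamts5, an aggrecanase whose gene lies near Adamts1 on chromosome 11, was at 8.67, 18.5, 20.7, 18.6 and 13.5 CPM in MOD and 10.3, 9.33, 9.49, 15.6 and 27.2 CPM in XBS. XBS 5 was the highest and MOD 1 the lowest library for Adamts5 (log2 fold change -0.15 ± 0.33, 95% interval -0.88 to 0.57). MOD 2, MOD 3, MOD 4 and XBS 5 stood above all other libraries for both Adamts5 and Adamts1, although Adamts1 was highest in MOD 4. Adamts4, the inducible aggrecanase, was low at 2.44, 3.60, 3.15, 4.39 and 6.30 CPM in MOD and 0.904, 3.11, 4.92, 1.90 and 4.23 CPM in XBS, with groups that overlapped broadly (log2 fold change -0.40 ± 0.41). Adamts15 and Adamts8 had log2 fold changes above 0. Adamts15 was at 143, 119.6, 122, 119.6 and 102 CPM in MOD and 222, 204, 135, 103 and 118 CPM in XBS, where XBS 1 and XBS 2 exceeded every MOD library and the other 3 did not (log2 fold change 0.37 ± 0.20, adjusted p = 0.452). Adamts8, a gene with high expression in lung, was at 59.6, 65.7, 60.7, 70.5 and 65.7 CPM in MOD and 79.0, 78.9, 64.8, 62.3 and 69.1 CPM in XBS, again with XBS 1 and XBS 2 highest (log2 fold change 0.14 ± 0.08, adjusted p = 0.493).

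The procollagen N-peptidases Adamts2, Adamts3 and Adamts14, which trim fibrillar procollagens, had log2 fold changes of 0.03 ± 0.10, 0.03 ± 0.30 and 0.13 ± 0.16. Adamts7 and Adamts12, which cut the cartilage protein COMP, had -0.09 ± 0.10 and -0.14 ± 0.13. Adamts9, another versican-cutting enzyme, had -0.15 ± 0.12, and Adamts6 and Adamts19 had 0.05 ± 0.25 and 0.07 ± 0.29. Adamts13, which cuts von Willebrand factor, was low, between 1.39 CPM in MOD 3 and 3.45 CPM in XBS 1. Adamts17, of the fibrillin-associated group, was at 18.2, 33.5, 23.1, 32.0 and 23.3 CPM in MOD and 19.3, 11.3, 23.6, 23.9 and 19.7 CPM in XBS. Only XBS 2 lay below the MOD range (log2 fold change -0.41 ± 0.22, adjusted p = 0.437). Adamts10 of the same group was the most abundant ADAMTS gene per length, and it had its highest values in XBS 1 and XBS 2, at 344 and 303 CPM.

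Libraries of one group also differed from each other. XBS 2 held the highest or the lowest value of the 10 libraries for 19 of the 42 genes (45.2%) and XBS 5 for 16 (38.1%), where over all tested genes these libraries were extreme for 35.8% and 23.1%. XBS 2 was lowest for 14 genes, among them Timp2, Timp3, Mmp2, Mmp14, Adam9 and Adam10, and XBS 5 highest for 13, among them Mmp2, Timp2, Adamts2 and Adamts5. Over all tested genes XBS 2 was lowest for 17.8% and XBS 5 highest for 12.7%. XBS 4 was extreme for 0 of the 42, and for 13.1% of all tested genes. The coefficient of variation was larger in XBS than in MOD for 31 of the 42 genes (73.8%), with medians of 25.9% and 19.8%. Over all tested genes it was larger in XBS for 63.5%, with medians of 16.0% and 13.4%.

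**Figure D5:**
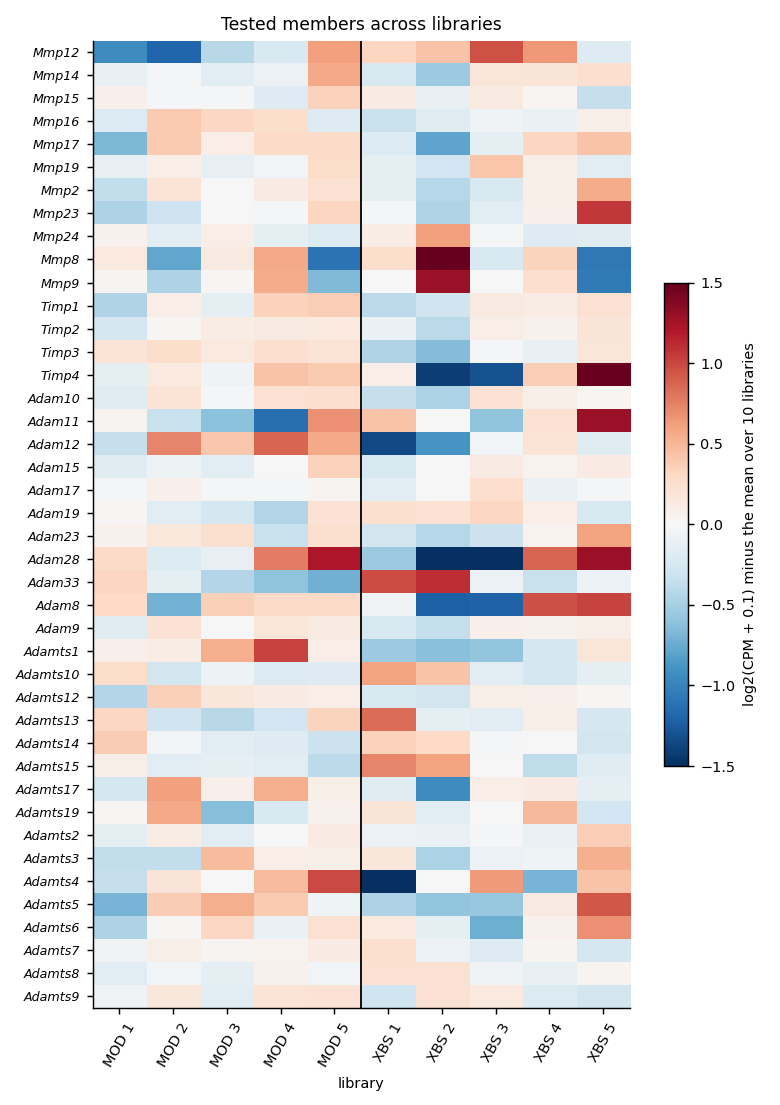
Log2(CPM + 0.1) of the 42 tested genes (rows, grouped as Mmp, Timp, Adam and Adamts) in the 10 libraries (columns, MOD left of the line), each row centred on its mean; red is above and blue below that mean. XBS 2 and XBS 3 are blue for Adam8, Adam28 and Timp4, XBS 2 is red for Mmp8 and Mmp9, and XBS 1 and XBS 2 are red for Adam33, Adamts10 and Adamts15.

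Other genes of the pathway were read from 5 lists, and 0 of their 67 tested genes passed by edgeR in either direction. Of the activators and other inhibitors, 17 were tested, 8 above 0 and 9 below (median log2 fold change -0.0008). By edgeR 2 of the 17 had an unadjusted p under 0.05, beside 13.2% of all tested genes. Spock2, a matrix proteoglycan of the testican family, averaged 179 ± 28.0 CPM over MOD and 119 ± 33.9 CPM over XBS (SD, n = 5; log2 fold change -0.58 ± 0.18, adjusted p = 0.232). Lcn2, lipocalin-2, which binds and protects MMP9, was at 340.1 ± 53.5 and 558 ± 218 CPM (log2 fold change 0.71 ± 0.23, adjusted p = 0.25). For Lcn2, XBS 1, XBS 2 and XBS 5, at 403, 401 and 404 CPM, lay just below the highest MOD library, MOD 4 at 406 CPM. They lay above the other MOD libraries, at 269 to 367.5 CPM. XBS 3 and XBS 4 were at 855 and 727 CPM. Of 7 tested iRhoms and tetraspanins, which carry ADAM17 and ADAM10 to the surface, 4 were above 0 and 3 below. Tspan15, which directs ADAM10 to cadherins, had a log2 fold change of -0.24 ± 0.09 (adjusted p = 0.316), and Rhbdf2, which encodes iRhom2, 0.21 ± 0.10 (adjusted p = 0.425).

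Of 24 tested genes for proteins that ADAMs shed, 11 were above 0 and 13 below. By edgeR 8 had an unadjusted p under 0.05, 5 higher and 3 lower in XBS. Over all tested genes the share was 13.2% (7.4% higher and 5.78% lower). Ager, the receptor RAGE of alveolar type 1 cells, averaged 1913 ± 249 CPM over MOD and 1422 ± 252 CPM over XBS (SD, n = 5; log2 fold change -0.43 ± 0.13, adjusted p = 0.233). Lrp1, an uptake receptor that clears MMPs and TIMPs, was at 422 ± 49.2 and 510.0 ± 50.9 CPM (log2 fold change 0.27 ± 0.10, adjusted p = 0.295). Of 15 tested matrix substrates, 11 were above 0 and 4 below. The 2 of smallest p were the basement membrane collagens Col4a1, at 1532 ± 115 and 1242 ± 182 CPM, and Col4a2, at 837 ± 122 and 625 ± 164 CPM (log2 fold changes -0.30 ± 0.11 and -0.42 ± 0.18, adjusted p = 0.295 and 0.355). Of the 4 tested ADAMTS-like genes, which lack the protease domain, 1 was above 0 and 3 were below, with Adamtsl5 at -0.40 ± 0.21 and Adamtsl3 at -0.24 ± 0.16 on the log2 scale.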

How the data were processed

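Lung RNA was extracted with Trizol and its messenger fraction built into libraries by adapter ligation and PCR, per the labels' protocols. Counts and FPKM stand side by side in the authors' table, per the file headers. The deposited counts were tested unchanged. The deposited FPKM could be recomputed from count, gene length and library sum to within a relative 8.82e-08, and served to compare genes. The sources used here do not state the aligner, counter, strand setting, annotation or rat build; the submitters' processing notes name human and mouse builds. Reads of overlapping genes or near-identical copies cannot be told apart.

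Each library took its group and number from its title. The filter was edgeR's filterByExpr at its settings of 10 for the count and 15 for the total, which 14320 of 22250 genes passed. These were scaled by TMM and XBS was compared with MOD by the robust quasi-likelihood test of edgeR 4.0.16 in R 4.3.3. P-values were adjusted by Benjamini-Hochberg over all of them, at a threshold of 0.05. Standard errors are the size of the log2 fold change over the root of F, and 95% intervals use the fit's degrees of freedom. Alternatives were DESeq2 1.42.0, limma 3.58.1 voom with sample weights, RLE and upper quartile scaling, other filters, the replicate number as a block and leaving out libraries. The fit was tested on simulated data, with 200 of 14320 genes changed. There edgeR recovered 38.7% of 1.5-fold, 71.4% of 2-fold and 92.6% of 4-fold changes. Of the calls 1.44% were false by edgeR and 14.5% by DESeq2. Genes named with values were 16 members taken by role, the 10 members of smallest p and the 2 genes of smallest p of each pathway list; others are given by range or fold change, or were named after their values were seen. The members, lists, rules and left-out libraries were chosen with earlier results of these data known.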

Additional observations from a re-analysis of the deposited data

Results flagged for a closer look

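In groups of 5 libraries, 46 groups (23 genes named by rule, in MOD and in XBS) were examined for a library whose gap to its nearest neighbour exceeded 0.71 of the group's range, and 3 were found; chance gives about 1 in 20 groups. Mmp8 in XBS 2 stood at 80.5 CPM, with the next XBS library at 30.4 CPM. Mmp14 in MOD 5 stood at 241 CPM, with the next MOD library at 160.0 CPM, and without MOD 5 the log2 fold change of Mmp14 was 0.10. Adam8 in MOD 2 stood at 55.2 CPM, below the next MOD library at 110.5 CPM.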

How the results depend on the processing

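Of the 23 genes named by rule, 14 kept the sign of their log2 fold change under all 19 alternatives and 9 did not. Adamts1, Timp3, Adam12, Mmp12, Adam33 and Mmp8 were among the 14. For Mmp8 only the sign was kept, since its log2 fold change fell from 0.59 to 0.001 without XBS 2. It was 0.0475 without XBS 2 and XBS 3. None of the family passed in the edgeR and limma voom fits run, and 1, Adamts1, passed by DESeq2 (lower in XBS; log2 fold change -0.75, adjusted p = 0.0321). The count over all genes was 11, and 348 by DESeq2, 66 by limma voom, 3 without XBS 2 and XBS 3 and 0 without MOD 4 and XBS 5 (edgeR; 1340 had an unadjusted p under 0.05). With 1 library left out it ran from 4 to 15, with 5 without MOD 2, 7 without MOD 3, 4 without MOD 4, 5 without XBS 1, 4 without XBS 2 and 4 without XBS 3.

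Without XBS 2 and XBS 3 the log2 fold change was 0.14 for Mmp2, -0.13 for Mmp9, 0.0205 for Mmp14, 0.0114 for Timp2 and 0.15 for Adamts5. Without MOD 4 and XBS 5 it was -0.47 for Timp4, -0.20 for Adam8 and 0.0002 for Mmp19. With limma voom it was 0.0322 for Mmp14, 0.0191 for Mmp19, -0.20 for Timp4 and -0.0546 for Adam8, and with upper quartile scaling 0.0017 for Adam17. With single libraries left out it ran from -0.22 to 0.048 for Mmp2, -0.0879 to 0.54 for Mmp9, -0.13 to 0.10 for Mmp14, -0.15 to 0.0471 for Mmp19, -0.12 to 0.023 for Timp2, -0.55 to 0.31 for Timp4, -0.24 to 0.27 for Adam8 and -0.0779 to 0.029 for Adam17. The cause was not tested. The median log2 fold change of the tested members ran from -0.11 without XBS 5 to 0.08 without XBS 2 and XBS 3. RLE scaling and both other filters left 10, 10 and 11 genes called and 0 members.

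The replicate numbers are shared by the groups without a stated link. Same-numbered libraries deviated from their group means with correlations of -0.12 to 0.33, 3 of 5 above 0.1, and 1 of 5 MOD libraries matched its own number best. With the replicate block 1 gene passed over all genes and 0 of the members, and the log2 fold change was -0.25 for Timp4 and -0.19 for Adam8. The 28 untested genes had at most 16 counts in any library, and the cause was not tested.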

Other observations

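The ADAM genes on chromosome 16 repeat the contrast seen among the Mmp genes of chromosome 8. Adam9, a widely expressed sheddase, lies from 71810377 to 71887926 in the deposited table and had 26037 counts over the 10 libraries. The next 4 ADAM genes on the same strand, Adam32, Adam5, Adam3a and Adam18, lie from 71889235 to 72210900 and had 11, 4, 11 and 1 counts. On chromosome 8, Adamts15 (31977001 to 32000378, minus strand) and Adamts8 (32018560 to 32037531, plus strand) lie head to head, and both had their 2 highest libraries in XBS 1 and XBS 2.

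MOD 1, XBS 1 and XBS 2 shared several values across the groups. They held the 3 highest values of Adam33, Adamts10, Adamts14 and Adamts15 and the 3 lowest of Timp1. These genes were picked after their values were seen.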
